A study of Mus musculus with 19 samples.

Results

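Expression of 10 basement membrane and parietal endoderm genes was followed through differentiation and AICAR treatment of mouse embryonic stem (ES) cells. The genes were Col4a1 and Col4a2 (collagen IV), Lama1, Lamb1 and Lamc1 (laminin), Nid1 and Nid2 (nidogens), Hspg2 (perlecan), Sparc and Pth1r. They were chosen by name, each matched 1 entry of its own among 22756 gene entries, and all 10 passed the expression filter in every tested comparison. Levels are given as reads in a gene divided by the library's reads in genes and scaled to CPM, the usual depth-normalised unit, and levels of different genes are compared as RPKM, the deposited values per gene model length, except where shares of reads or read ratios are named.

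A basement membrane is a thin sheet of extracellular matrix that underlies epithelia and surrounds many other cells. Laminin trimers of 1 alpha, 1 beta and 1 gamma chain assemble at the cell surface, collagen IV trimers form a second network, and nidogens and perlecan link them. Parietal endoderm, an extraembryonic cell type that lines the yolk cavity of rodent embryos, lays down an unusually thick basement membrane, Reichert's membrane. Its cells are known for abundant collagen IV, the laminin made of the Lama1, Lamb1 and Lamc1 chains, the matrix glycoprotein SPARC and the receptor for parathyroid hormone and its related peptide, encoded by Pth1r.

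The ES cells carry a destabilised green fluorescent protein (GFP) under the control of Rex1 (Zfp42), a gene of naive ES cells. The undifferentiated state was held by LIF together with MEK and GSK3 inhibitors, and differentiation was started in medium with serum. After 2 days, cells lacking both GFP and SSEA1, a carbohydrate on the surface of pluripotent mouse cells, were collected by sorting and cultured further to day 15, without AICAR or with it. AICAR enters cells, is phosphorylated to an analogue of AMP and switches on AMPK, a kinase that senses low energy. A single library stood for each of 6 groups: undifferentiated, day-2, sorted day-2, untreated day-15, AICAR unfractionated and AICAR GFP-negative cells. The AICAR GFP-positive fraction had 3 libraries. GFP-positive cells were also returned to LIF and the inhibitors as 8 lines from picked colonies (colony lines) and 2 lines from a sort (sorted lines), each library being 1 line. One label field calls the AICAR fractions unsorted and both day-2 libraries sorted, and the titles were followed where the fields differ.

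The 19 libraries held 5771671 to 14233421 reads in genes. AICAR GFP-positive libraries 1 and 2 came from a second sequencing project and the unnumbered GFP-positive library, here called library 3, from the first project with all the others. Library 3 stood apart: its chi-square per degree of freedom against libraries 1 and 2 was 51.1 and 47.7, against 10.5 between those 2. Project and replicate cannot be told apart there, so tests on GFP-positive cells are given with and without library 3. The labels do not say whether replicates were separate cultures, and p-values therefore measure only the spread between these samples. In bulk RNA, fewer cells of a type and less RNA per cell cannot be told apart.

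Parietal endoderm markers other than the 10 genes were at their highest summed level in AICAR GFP-negative cells. All 16 of them were above 10 CPM there and they summed to 4212 CPM, against 271 CPM in undifferentiated cells, where 2 were above 10 CPM. All 16 were also above 10 CPM in untreated day-15 cells (sum 2395 CPM) and unfractionated AICAR cells (2927 CPM). In GFP-positive library 3, 15 were above it (2016 CPM). The endoderm regulators Gata6 and Gata4 stood at 263 and 313 CPM in GFP-negative cells, Sox7 at 136 CPM, the proteoglycan Srgn at 476 CPM and thrombomodulin (Thbd) at 139 CPM. Mesenchyme markers summed to 589 CPM in those cells, against 48226 CPM in untreated day-15 cells and 10657 CPM in unfractionated AICAR cells. Of 16 mesenchyme markers 16 were above 10 CPM in the day-15 cells and 10 in each of the AICAR libraries named. Col1a1, a collagen I chain, stood at 14755 CPM in day-15 cells, 4453 CPM in unfractionated AICAR cells and 168 CPM in GFP-negative cells, and Lum at 316, 0 and 0.52 CPM. The label parietal endoderm thus matched a marker sum that was highest in the GFP-negative cells, but the markers were not particular to them. Not every marker was highest there. Of the 16, 11 were more than 2-fold higher than in untreated day-15 cells and 2 lower, Krt19 among the latter. In GFP-positive library 3, Tfpi, Dab2 and Krt19 stood at 164%, 121% and 112% of the GFP-negative level. The GFP-negative cells also held visceral endoderm (816 CPM), smooth muscle (372 CPM) and epithelium markers (836 CPM). In untreated day-15 cells these sums were 323, 3964 and 2870 CPM. The part of those cell types in the levels of the 10 genes was not tested.

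**Figure D1:**
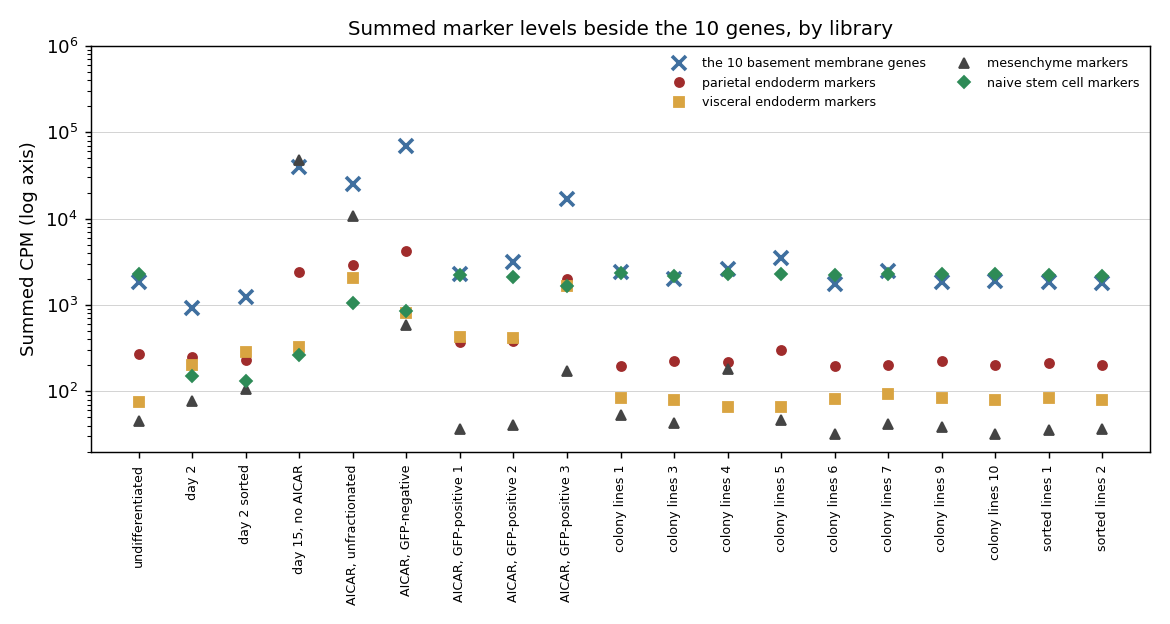
Summed CPM (log axis) of the 10 genes (blue crosses) and of 4 marker lists in each of the 19 libraries, 1 symbol per list and library. The 10 genes and the parietal endoderm markers are highest in AICAR GFP-negative cells, and mesenchyme markers are highest in untreated day-15 cells.

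The 10 genes together took 0.183% of reads in undifferentiated cells and 7% in AICAR GFP-negative cells. Their share was 0.0922% in day-2 cells, 0.125% in sorted day-2 cells, 3.95% in untreated day-15 cells and 2.54% in unfractionated AICAR cells. The GFP-positive libraries 1, 2 and 3 gave 0.228%, 0.318% and 1.7%, the colony lines 0.176% to 0.35% and the sorted lines 0.184% and 0.18%.

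**Figure D2:**
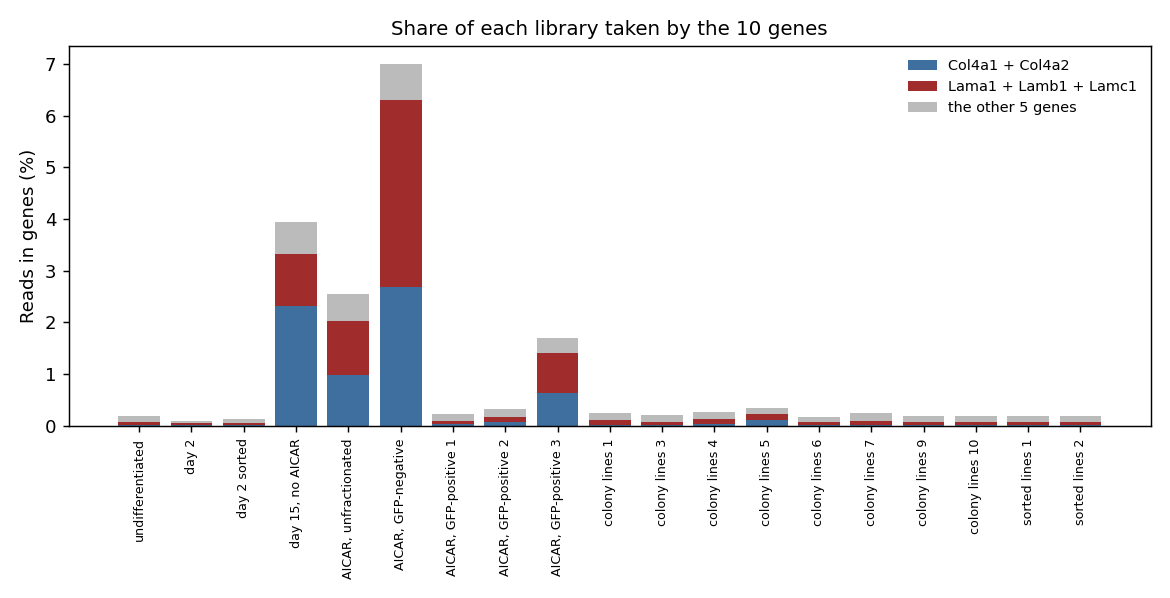
Share of reads in genes (%) taken by the 10 genes in each library, as stacked bars of collagen IV (blue), the 3 laminin chains (red) and the other 5 genes (grey). The bars reach 7% in AICAR GFP-negative cells and 3.95% in untreated day-15 cells and stay at or under 0.35% in the lines.

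Both collagen IV genes were low in undifferentiated cells and high at day 15. Col4a1 stood at 25 CPM in undifferentiated cells, 44.5 CPM in day-2 cells, 41.1 CPM in sorted day-2 cells, 14561 CPM in untreated day-15 cells, 6730 CPM in unfractionated AICAR cells and 19053 CPM in AICAR GFP-negative cells. Its GFP-positive libraries 1, 2 and 3 gave 158, 458 and 4598 CPM, all above undifferentiated cells and below day-15 and GFP-negative cells. The colony lines ran from 19.4 CPM through a median of 29.2 CPM to 665 CPM, and the sorted lines gave 34.2 and 29.7 CPM. Most lines were thus near undifferentiated cells, and colony lines 1, 4 and 5 were above them at 82.8, 184 and 665 CPM. Col4a2, the partner chain, gave 13.8, 12.7, 10.3, 8583, 2986 and 7731 CPM in those 6 single libraries, in the order given for Col4a1. Among GFP-positive libraries, Col4a2 gave 80.5, 200 and 1802 CPM, its colony lines 5.5 to 335 CPM with a median of 10.8 CPM, and its sorted lines 13 and 9.21 CPM. Col4a1 was at 1.78 of its undifferentiated level in day-2 cells (counting interval 1.48 to 2.16) and at 1.65 in sorted day-2 cells (1.35 to 2). The matching values for Col4a2 were 0.918 (0.684 to 1.23) and 0.749 (0.541 to 1.03). Both Col4a2 intervals include 1, so its counts do not show a change at day 2. Unlike Col4a1, Col4a2 was slightly higher in untreated day-15 cells than in AICAR GFP-negative cells.

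Col4a1 and Col4a2 are transcribed away from each other from starts that lie 21 bases apart in the RefSeq annotation of GRCm38.p6, at chr8:11312805-11312826. The stretch is shown because both genes were high and low in the same libraries. It is written 5′ to 3′ on the plus strand, the direction of Col4a2, and capitals mark a GC box (GGGCGG).
Col4a1 and Col4a2: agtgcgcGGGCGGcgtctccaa
A GC box on either strand was present in 35.7% of 32851 RefSeq promoter windows, which span 250 bases before to 50 bases after a start. Its presence here is a description of the sequence, not a binding site.

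Of the laminin chains, Lama1 encodes the alpha 1 chain, which carries the main receptor-binding domains. It stood at 110 CPM in undifferentiated cells, 17.6 CPM in day-2 cells, 21.1 CPM in sorted day-2 cells, 4174 CPM in untreated day-15 cells, 4462 CPM in unfractionated AICAR cells and 16418 CPM in AICAR GFP-negative cells. The GFP-positive libraries gave 85, 311 and 3341 CPM, and library 1 was below undifferentiated cells. The colony lines ran from 57.1 through a median of 101 to 274 CPM and the sorted lines gave 84 and 78 CPM, on both sides of the undifferentiated value. Lamb1, the beta 1 chain, gave 31.1, 212, 286, 3301, 3344 and 10218 CPM in the same 6 single libraries. Across GFP-positive libraries Lamb1 gave 129, 252 and 2192 CPM, its colony lines 13.8 to 130 CPM with a median of 23.6 CPM and its sorted lines 22.1 and 20 CPM. Lamb1 was already high at day 2, when Lama1 was low. Lamc1, the gamma 1 chain shared by most laminins, gave 443, 158, 206, 2655, 2753 and 9580 CPM. For Lamc1 the GFP-positive libraries gave 365, 475 and 2142 CPM, its colony lines 506 to 772 CPM with a median of 679 CPM and its sorted lines 508 and 498 CPM. Every line was above the undifferentiated library for Lamc1, and GFP-positive library 1 was below it.

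Nid1 and Nid2 encode the nidogens, which bind the laminin gamma 1 chain and collagen IV. Nid1 stood at 121 CPM in undifferentiated cells, 9.93 CPM in day-2 cells, 10 CPM in sorted day-2 cells, 1201 CPM in untreated day-15 cells, 679 CPM in unfractionated AICAR cells and 1174 CPM in AICAR GFP-negative cells. Nid1 in the GFP-positive libraries gave 66.6, 91.8 and 188 CPM, its colony lines 112 to 192 CPM with a median of 127 CPM and its sorted lines 137 and 134 CPM. The GFP-positive libraries lay on both sides of the undifferentiated value and far below the day-15 and GFP-negative cells. Nid2 varied least of the 10 genes, with 562, 206, 229, 491, 666 and 908 CPM in the single libraries. For Nid2 the GFP-positive libraries gave 716, 823 and 872 CPM, its colony lines 509 to 615 CPM with a median of 571 CPM and its sorted lines 541 and 512 CPM. All 3 GFP-positive libraries were above all 10 lines. Hspg2, the heparan sulphate proteoglycan perlecan, gave 424, 178, 368, 1421, 1498 and 1290 CPM. Hspg2 in the GFP-positive libraries gave 621, 442 and 836 CPM, its colony lines 372 to 613 CPM with a median of 452 CPM and its sorted lines 378 and 393 CPM, so the colony lines overlapped the GFP-positive libraries.

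Sparc, a collagen-binding glycoprotein, stood at 96.7 CPM in undifferentiated cells, 78.9 CPM in day-2 cells, 78.5 CPM in sorted day-2 cells, 2911 CPM in untreated day-15 cells, 2101 CPM in unfractionated AICAR cells and 3275 CPM in AICAR GFP-negative cells. Its GFP-positive libraries gave 51, 120 and 914 CPM, its colony lines 98.9 to 160 CPM with a median of 119 CPM, and both sorted lines 125 CPM. Library 1 was below every other library of the series and library 3 above every line. Pth1r gave 0.881, 3.27, 3.3, 198, 170 and 392 CPM in the single libraries. Its GFP-positive libraries gave 3.61, 9.06 and 105 CPM, all above every line. The colony lines gave 36 reads in all and at most 2.12 CPM. Colony lines 3 and 7 had 0 reads, which allows up to 3 reads, and the sorted lines had 1 and 4 reads.

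**Figure D3:**
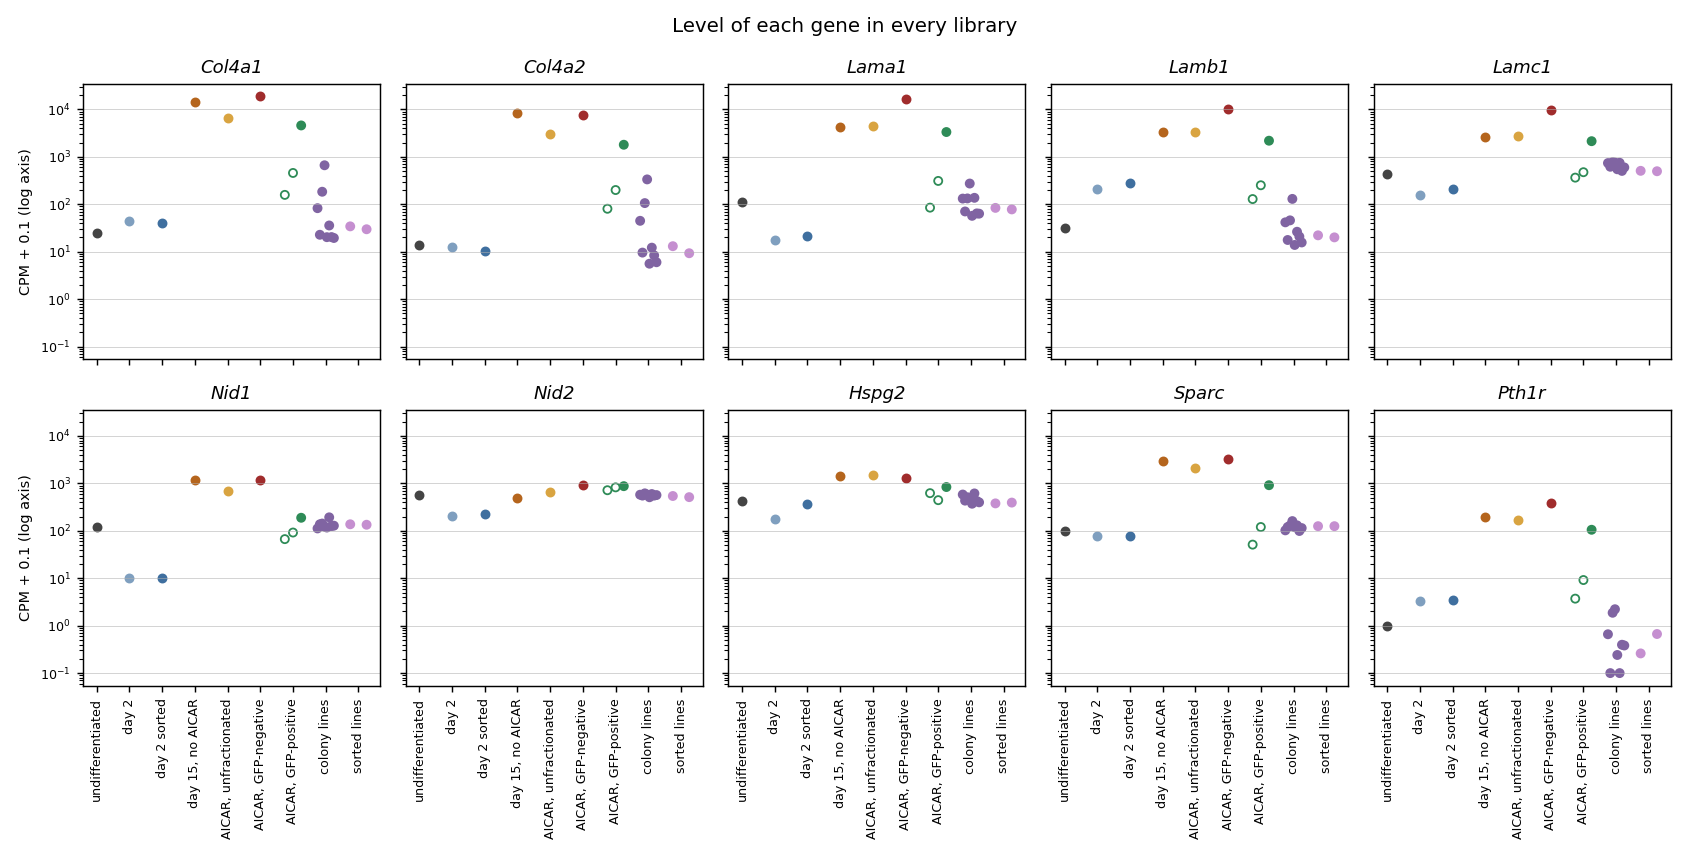
Level of each of the 10 genes in every library, as CPM + 0.1 on a log axis, with 1 point per library and open circles for the 2 GFP-positive libraries of the second sequencing project. Points at 0.1 are libraries with 0 reads. Nid2 and Hspg2 vary least, and Col4a1 and Col4a2 in colony lines 1, 4 and 5 lie above the other lines.

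Per gene model length, the order of the genes differed between states. In undifferentiated cells Nid2 (135 RPKM), Lamc1 (90.4 RPKM) and Sparc (82.4 RPKM) were highest, and Col4a1 (4.93 RPKM), Col4a2 (2.62 RPKM) and Pth1r (0.444 RPKM) lowest. In AICAR GFP-negative cells Col4a1 (3753 RPKM) and Sparc (2781 RPKM) led. The 3 laminin chains lay close together there, at 1949 RPKM for Lamc1, 1872 RPKM for Lamb1 and 1817 RPKM for Lama1. Colony and sorted lines again had Nid2, Lamc1 and Sparc as the 3 highest, with mean Nid2 levels of 137 and 127 RPKM.

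Day-2 cells differed from undifferentiated cells in both directions. Lamb1 was 6.82-fold higher in day-2 cells (95% counting interval 5.91 to 7.91), the only 1 of 8 members with at least 100 reads to be more than 2-fold higher, against 8.28% of all such genes. Of the same 8 members, 5 were more than 2-fold lower, against 7.6% of genes: Lama1, Lamc1, Nid1, Nid2 and Hspg2. Nid1 was at 0.0823 of its undifferentiated level (0.0642 to 0.104) and Lama1 at 0.161 (0.133 to 0.194). In sorted day-2 cells Lamb1 was 9.2-fold higher (7.98 to 10.7), again the only 1 of 8 members with at least 100 reads, against 8.9% of genes. Pth1r, with at most 25 reads in these libraries, was 3.71-fold higher in day-2 cells (1.48 to 11.1) and 3.74-fold in sorted day-2 cells (1.47 to 11.3). Lama1, Lamc1, Nid1 and Nid2 were more than 2-fold lower there, against 7.87% of genes, while Hspg2 was at 0.869 of its undifferentiated level (0.823 to 0.917). These are comparisons of 1 library with 1 library, with no replicate check, and their intervals cover counting error only.

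The promoters of Lamb1, Nid1 and Sparc are shown as genes that went up, went down and changed little at day 2. They were chosen after the values were seen. Each is written 5′ to 3′ in the direction of its gene, in GRCm38.p6, and ends before the outermost annotated start. Lamb1 lies at chr12:31265043-31265145 on the plus strand, Nid1 at chr13:13437352-13437601 on the plus strand and Sparc at chr11:55420081-55420330 on the minus strand. Capitals mark the GC box (GGGCGG) and the CCAAT box (CCAAT), on either strand.
Lamb1: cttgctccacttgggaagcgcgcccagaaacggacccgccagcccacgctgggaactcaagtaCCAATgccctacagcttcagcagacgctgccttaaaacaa
Nid1: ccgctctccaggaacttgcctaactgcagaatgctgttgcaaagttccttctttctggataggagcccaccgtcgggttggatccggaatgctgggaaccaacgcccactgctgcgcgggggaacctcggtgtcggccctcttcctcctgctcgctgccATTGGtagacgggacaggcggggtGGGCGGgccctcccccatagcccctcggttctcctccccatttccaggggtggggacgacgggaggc
Sparc: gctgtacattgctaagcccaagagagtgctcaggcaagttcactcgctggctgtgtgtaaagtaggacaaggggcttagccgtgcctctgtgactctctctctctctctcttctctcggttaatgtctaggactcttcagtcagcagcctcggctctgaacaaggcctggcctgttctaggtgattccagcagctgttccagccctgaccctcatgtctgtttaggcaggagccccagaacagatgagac
The printed stretch of Lamb1 held 1 CCAAT box, that of Nid1 1 of each and that of Sparc neither. RefSeq windows were matched for 7 of the 10 genes, 9 windows in all. Over whole windows 7 of the 9 held a GC box, Lamb1 among them, and 5 of 9 a CCAAT box, which was present in 37.4% of all windows. In searches on both strands, 10 motifs were tried, and GC and CCAAT boxes were picked for marking after the matches were seen. Both GATA forms (AGATAA, in 11.2% of all windows, and TGATAA, in 9.05%), the short SOX form (ACAAT, 31%), the TATA box (TATAAA, 13.6%), CRE (TGACGTCA, 1.79%), AP-1 (TGAGTCA, 5.2%) and E-box (CACGTG, 7.15%) had no match in the 9 windows. The longer SOX form (ACAAAG, 18.7%) matched in Pth1r. A missing match says only that these letters are not in these windows.

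All 10 genes were more than 2-fold higher in untreated day-15 cells than in the sorted day-2 cells they came from, against 29.7% of genes higher and 18.6% lower. Col4a2 was 830-fold higher (656 to 1067) and Col4a1 355-fold (315 to 401). Lama1 was 198-fold higher (167 to 235) and Nid1 120-fold (94 to 154). Lamb1 and Lamc1 were 11.5-fold (11 to 12.1) and 12.9-fold (12.2 to 13.6) higher, and Nid2, the smallest, 2.14-fold (2.02 to 2.27). Against undifferentiated cells 9 of 10 were more than 2-fold higher, against 31.8% of genes higher and 18.9% lower. The exception was Nid2, at 0.874 of its undifferentiated level (0.836 to 0.915). The median log2 ratio of all genes was 0.20 there, and with TMM scaling over the 19 libraries the log2 ratio of Nid2 moved from -0.19 to -0.39. The same scaling put Nid2 just under the threshold against sorted day-2 cells, at 0.99. Of 16 mesenchyme markers all 16 were also more than 2-fold higher in the day-15 cells than in undifferentiated cells, and their part in this result was not tested.

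Unfractionated AICAR cells had less collagen IV than untreated day-15 cells but like levels of laminin. Col4a1 was at 0.462 of the untreated level (0.457 to 0.467) and Col4a2 at 0.348 (0.342 to 0.354). These 2 were the members more than 2-fold lower, against 14.4% of genes, and 0 were higher, against 10.9%. The ratios for Lama1, Lamb1 and Lamc1 were 1.07, 1.01 and 1.04, and for Hspg2 1.05. With TMM scaling the log2 ratios of Lamb1 (0.02) and Lamc1 (0.05) changed sign, to -0.04 and -0.01. All 16 mesenchyme markers were more than 2-fold lower in the unfractionated AICAR cells, with a median log2 ratio of -3.04. Their part in the lower collagen IV was not tested.

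AICAR GFP-negative cells had more laminin than untreated day-15 cells. Lama1 was 3.93-fold higher (3.88 to 3.98), Lamc1 3.61-fold (3.55 to 3.67) and Lamb1 3.1-fold (3.05 to 3.14). These 3 chains were the members past 2-fold, against 11.1% of genes higher, and no member was lower, against 19.3% of genes. Pth1r lay just inside the threshold at 1.98-fold (1.85 to 2.11), and Col4a1 was 1.31-fold higher (1.3 to 1.32). Of 16 parietal endoderm markers 11 were more than 2-fold higher and 2 lower, among them Sox7 at a log2 ratio of 2.13, Foxa2 at 2.08, Srgn at 1.85 and Krt19 at -3.79. All 16 mesenchyme markers were lower, with a median log2 ratio of -6.2.

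AICAR GFP-positive cells were compared with 4 single libraries by edgeR's quasi-likelihood test with Benjamini-Hochberg adjustment over all genes tested. With 1 sample on the other side, the spread in each fit came from the GFP-positive group alone, and the lone sample is taken to vary as that group does. SE values of log2 fold changes were taken from the fold change and its F statistic. Against untreated day-15 cells Nid1 fell by 3.32 on the log2 scale (SE 0.51, adjusted p = 0.00869) and Hspg2 by 1.09 (SE 0.33, adjusted p = 0.0459). Nid2 rose by 0.79 (SE 0.19, adjusted p = 0.0252). These were the 3 of 10 members called, against 23.2% of genes lower and 23.1% higher. The other 7 did not pass, although all 3 libraries lay below the day-15 cells for each of them: Col4a1 gave -3.02 (SE 1.59, adjusted p = 0.172) and Lama1 -1.70 (SE 1.71, adjusted p = 0.446). Without library 3 all 10 members were called, 9 lower and 1 higher, against 33% of genes lower and 30.2% higher. Col4a1 then gave -5.49 (edgeR, adjusted p = 8.54e-06), and without library 1 or 2 the call of Nid1 alone remained. All 16 mesenchyme markers fell in this comparison, with and without library 3 (median log2 fold change -9.5 and -12.07), and their part was not tested. On simulated data this comparison recovered 3 of 100 genes changed 2-fold and 28 of 100 changed 4-fold. The simulation gave all genes 1 shared spread, while SE values here ran from 0.19 (Nid2) to 1.71 (Lama1). It therefore does not give the recovery of single members.

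Against AICAR GFP-negative cells no member passed, and neither did any of the 13821 genes, 0% higher and 0% lower. edgeR gave 3022 genes with an unadjusted p under 0.05, 3 members among them, and DESeq2 called 1204 genes and 2 members. All 10 members were nonetheless below the GFP-negative cells in all 3 libraries. The GFP-positive libraries 1, 2 and 3 held 0.828%, 2.4% and 24.1% of the GFP-negative level of Col4a1 and 0.518%, 1.89% and 20.4% for Lama1. The corresponding values were 1.56%, 3.66% and 27.9% for Sparc and 0.919%, 2.31% and 26.7% for Pth1r. In library 3, 8 of the 10 genes lay within 16% to 27.9%, all but Nid2 (96%) and Hspg2 (64.8%). Without library 3, 9 members were called lower, all but Nid2, against 16% of genes lower and 12.6% higher. Col4a1 then gave -5.97 (edgeR, adjusted p = 1.64e-05) and Nid2 -0.25 (adjusted p = 0.153).

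Taken as a sum, parietal endoderm markers differed between the GFP-positive libraries in the same order. They summed to 371, 383 and 2016 CPM in libraries 1, 2 and 3, and visceral endoderm markers to 423, 413 and 1640 CPM. Gata6 stood at 7.29, 10.5 and 76.6 CPM in them (263 CPM in GFP-negative cells), Sox7 at 1.49, 2.18 and 30.4 CPM (136 CPM) and Pdgfra, a receptor of primitive endoderm, at 10, 18.7 and 123 CPM (481 CPM). In library 3 Tfpi, Dab2 and Krt19 stood at 164%, 121% and 112% of the GFP-negative level, and Cited1 and Ctsl at 67.7% and 66.6%. The rest of the parietal endoderm list lay from 15.9% (Foxa2) to 39.4% (Plat). From library 1 to 2, Cited1 went from 12.6% to 9.44% and Ctsl from 18.8% to 16.9%. Naive stem cell markers summed to 2203, 2129 and 1650 CPM. Cubn, a visceral endoderm receptor, was higher in library 3 (680 CPM) than in GFP-negative cells (175 CPM). The part of other cell types in the difference between the libraries was not tested.

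**Figure D4:**
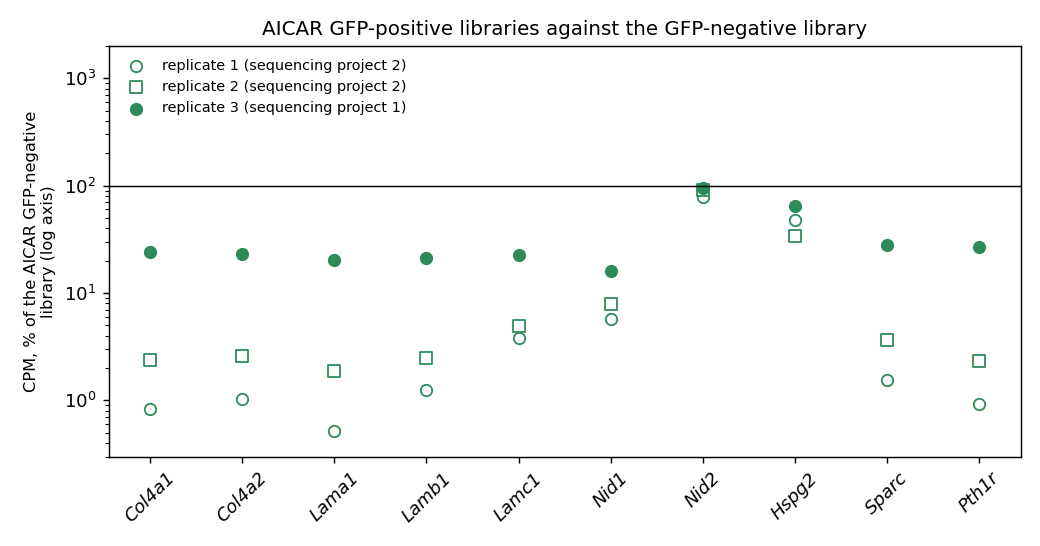
CPM of each gene in the 3 AICAR GFP-positive libraries as percent of the AICAR GFP-negative library (log axis, line at 100%), with open symbols for the second sequencing project. Library 3 lies at 20.4% to 27.9% of the GFP-negative level for 7 genes, and libraries 1 and 2 lie under 10% for all but Nid2 and Hspg2.

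Against undifferentiated cells no member passed in AICAR GFP-positive cells by edgeR, against 2.43% of genes higher and 2.62% lower. No member had an unadjusted p under 0.05, and DESeq2 called 0. Col4a1 gave 5.93 (SE 2.51, adjusted p = 0.19) and Lamb1 4.59 (SE 2.07, adjusted p = 0.211), both with all 3 libraries above. Without library 3, 4 were called higher and 1 lower, against 15.1% and 15.7% of genes. They were Col4a1 (3.45, edgeR, adjusted p = 0.00121), Col4a2 (3.17), Lamb1 (2.44), Pth1r (2.66) and, lower, Nid1 (-0.78, adjusted p = 0.0107). Against sorted day-2 cells only Nid2 passed in edgeR, with a rise of 1.74 (SE 0.18, adjusted p = 0.0197), against 3.18% of genes higher and 2.6% lower. Without library 2 no member passed, but neither did any other gene of the comparison. Without library 3, 6 members rose: Col4a1, Col4a2, Lama1, Lamc1, Nid1 and Nid2. Of all genes 15.3% rose and 14.9% fell without library 3.

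Colony lines had less laminin beta 1 chain, Nid2 and Pth1r than AICAR GFP-positive cells, with or without library 3. By edgeR 7 of 10 members fell and 0 rose, against 30.3% of genes lower and 27.6% higher. Lamb1 fell by 4.29 on the log2 scale (SE 0.72, adjusted p = 1.77e-04), from 857 ± 1157 CPM (SD, n = 3) to 39 ± 38.7 CPM (SD, n = 8), and only colony line 5 (130 CPM) reached into the GFP-positive range. Pth1r fell by 5.68 (SE 0.89, adjusted p = 9.88e-05), with every line below every GFP-positive library. Col4a1 fell by 3.56 (SE 1.06, adjusted p = 0.0103), Col4a2 by 3.23 (SE 1.08, adjusted p = 0.0196) and Lama1 by 3.25 (SE 0.70, adjusted p = 0.00127), with overlap between the groups for all 3. Nid2 fell by 0.35 (SE 0.06, adjusted p = 3.86e-04), without overlap. Sparc fell by 1.40 (SE 0.52, adjusted p = 0.0334), with overlap, but did not pass with DESeq2 (adjusted p = 0.0647), without colony line 1, 9 or 10 (edgeR, adjusted p = 0.0527, 0.0538 and 0.051) or without lines 1, 4 and 5 (adjusted p = 0.0868). Lamc1 (-0.42, adjusted p = 0.347), Nid1 (0.38, adjusted p = 0.176) and Hspg2 (-0.26, adjusted p = 0.192) did not pass.

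Library 3 decided several of these values. Without it Col4a1 gave -1.10 (edgeR, adjusted p = 0.392), Col4a2 -0.96 (adjusted p = 0.482) and Lama1 -0.63 (adjusted p = 0.298), none of which passed. Lamc1 turned to a rise of 0.79 (adjusted p = 6.28e-04) and Sparc to a rise of 0.65 (adjusted p = 0.0285), and Nid1 rose by 0.90 (adjusted p = 4.98e-04). Lamb1 (-2.15, adjusted p = 0.00464), Nid2 (-0.30, adjusted p = 0.00237) and Pth1r (-3.12, adjusted p = 9.44e-04) fell with and without it. The first sequencing project holds library 3 alone of the GFP-positive cells. Within it the log2 values of all 10 members were negative, among them Lamc1 (-1.50), Hspg2 (-0.62) and Nid1 (-0.29). The spread came from the colony lines alone there. With library 3, parietal endoderm markers fell as most of these genes did: 12 of 15 tested fell in the colony lines, led by Dab2, Fst, Pdgfra and Srgn. Of 10 visceral endoderm markers 7 fell. Without library 3 these counts were 10 (with 1 higher) and 6, while the members split into 3 lower and 3 higher. The median log2 fold change was then -2.01 for the parietal endoderm markers and -0.47 for the members. The shares of all genes lower were 30.3% with library 3 and 29.7% without it. The part of these markers was not tested.

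Sorted lines, only 2 in number, had less collagen IV, laminin beta 1 chain and Nid2 than AICAR GFP-positive cells. By edgeR Col4a1 fell by 5.59 (SE 1.61, adjusted p = 0.0366), Col4a2 by 5.79 (SE 1.58, adjusted p = 0.0307), Lamb1 by 5.17 (SE 1.42, adjusted p = 0.0312) and Nid2 by 0.44 (SE 0.10, adjusted p = 0.0198). These were 4 of 10 lower and 0 higher, against 19.1% of genes lower and 17.5% higher. Both lines lay below all 3 GFP-positive libraries for each of the 4. Without library 3, 5 members fell and 2 rose, against 26.4% and 25.3% of genes. The first project holds library 3 alone of the GFP-positive cells. Within it the log2 values of all 10 members were negative, among them Pth1r (-7.85), Lama1 (-5.15) and Nid1 (-0.25). The spread came from the 2 lines alone there, so a count of calls says little about the members. The 4 calls were lost with either sorted line left out, where 1 line remained and far fewer genes passed in all. Without sorted line 1 or 2, Col4a1 gave -5.67 and -5.47 and Nid2 -0.47 and -0.39. Nid2 also did not pass without GFP-positive library 2 (edgeR, adjusted p = 0.0507). In simulated data with 1 shared spread for all genes, this comparison recovered 29 of 100 genes changed 2-fold, against 91 of 100 for the colony lines. The 2 comparisons were not tested against each other.

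No member passed between colony lines and undifferentiated cells or between the 2 kinds of line, and sorted lines were not tested against undifferentiated cells. Colony lines against undifferentiated cells gave 0.00812% of genes higher and 0.0244% lower by edgeR, 4 genes in all, while DESeq2 called 387 genes and 0 members. Col4a1 gave 2.38 (SE 2.05, adjusted p = 0.544) and Lamc1, the 1 member with an unadjusted p under 0.05, gave 0.57 (SE 0.20, adjusted p = 0.183) with all 8 lines above the undifferentiated library. Without colony lines 1, 4 and 5, left out after their values were seen, Col4a1 gave -0.09 and Col4a2 -0.76. Colony against sorted lines gave 0% of genes higher and 0% lower by edgeR and 0 by DESeq2, with 1092 genes and 1 member at an unadjusted p under 0.05. Col4a1 gave 2.02 (SE 1.37, adjusted p = 0.623) and, without those 3 lines, -0.45 (adjusted p = 0.919). The smooth muscle markers summed to 120 and 183 CPM in lines 4 and 5 and to 36 to 45.8 CPM in the other colony lines, and mesenchyme markers to 179 CPM in line 4. Line 1 had 45.8 and 53.3 CPM of these lists.

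The balance between subunits differed between states. Per gene model length, Lama1 to Lamc1 was 0.134 in undifferentiated cells, 0.0607 and 0.0559 in the 2 day-2 libraries, 0.855 in untreated day-15 cells and 0.932 in AICAR GFP-negative cells. The GFP-positive libraries 1, 2 and 3 gave 0.127, 0.356 and 0.849, and the lines 0.0567 to 0.197. Lamb1 to Lamc1 was 0.0632 in undifferentiated cells but already 1.21 and 1.25 at day 2, 1.12 in untreated day-15 cells and 0.96 in GFP-negative cells. By transcript, Lama1 was thus low against Lamc1 at day 2, and both Lama1 and Lamb1 were low against it in undifferentiated cells and in the lines. These ratios leave out other alpha and beta chains, and chain proteins were not measured. Transcripts of all 3 chains were near equal in the day-15 and GFP-negative cells. Col4a1 to Col4a2 was above 1 in every library, from 1.77 in untreated day-15 cells to 4.14 in sorted day-2 cells. Nid1 to Nid2 was 0.24 in undifferentiated cells, 0.0539 and 0.049 at day 2, 2.73 in untreated day-15 cells and 1.45 in GFP-negative cells. Nid1 exceeded Nid2 in the untreated day-15 library and in both AICAR libraries that are not GFP-positive.

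**Figure D5:**
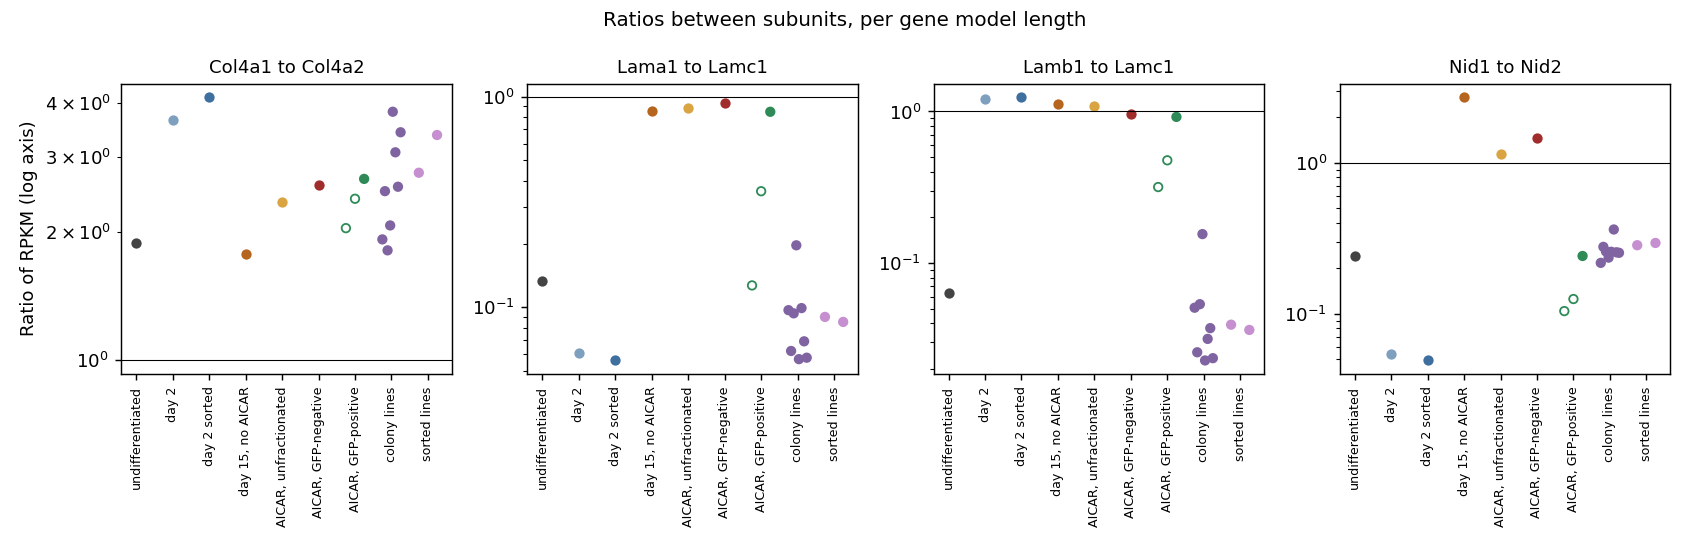
Ratios of RPKM between subunits in every library (log axis, line at 1), with 1 point per library and open circles for the second sequencing project. Lama1 to Lamc1 and Lamb1 to Lamc1 lie near 1 in untreated day-15 and AICAR GFP-negative cells and under 0.2 in the lines.

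The log2 read ratios of colony lines and AICAR GFP-positive cells were compared by 2-sided exact permutation tests, 4 in all, with a smallest possible p of 0.0121. Lamb1 to Lamc1 was lower in colony lines by 3.69 (-4.49 ± 0.92, SD, n = 8, against -0.80 ± 0.78, n = 3; exact p = 0.0121, adjusted p = 0.0485). Lama1 to Lamc1 was also lower (-2.70 ± 0.60 against -0.69 ± 1.37; exact p = 0.0242, adjusted p = 0.0485), and Nid1 to Nid2 was higher by 0.84 (exact p = 0.0364, adjusted p = 0.0485). These last 2 ratios overlapped between the groups. The Lama1 to Lamc1 read ratio of library 1 (0.233) lay within the colony range (0.104 to 0.362). So did the Nid1 to Nid2 read ratio of library 3 (0.215, range 0.194 to 0.323). Libraries 1 and 2 (0.093 and 0.111 for Nid1 to Nid2) came from the second project and all colony lines from the first. Project and group cannot be told apart for them. For Col4a1 to Col4a2 the difference was 0.12 (exact p = 0.642). The 3 calls were lost when group medians were used (exact test, adjusted p = 0.0646 each). They were also lost without colony line 3, 4, 6, 7, 9 or 10. Leaving out any 1 GFP-positive library lost them too, but a call then needs all 4 ratios at the smallest possible p. That last loss says nothing about the ratios themselves.

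Other basement membrane genes differed from the laminin chains in AICAR GFP-negative cells. Of 30 such genes 26 had at least 100 reads in a library of the comparison of untreated day-15 with undifferentiated cells. Of these 23 were past 2-fold upward, against 31.8% of genes (median log2 ratio 5.14, against 0.20 over all genes). The largest were Fbln2 (log2 ratio 9.80), Col4a5 (9.39), Frem1 (8.42) and Col15a1 (8.35). In AICAR GFP-negative against untreated day-15 cells 20 of 26 were lower and 0 higher, against 19.3% and 11.1% of genes (median -3.25, against 0.06 over all genes). Col15a1 gave -7.75, Smoc2 -6.33, Frem1 -5.97 and Egfl6 -5.85, while the laminin trimer of the 10 genes was higher. In colony lines against GFP-positive cells 8 of 16 rose and 3 fell by edgeR, against 27.6% and 30.3% of genes (median log2 fold change 0.26, against -0.03 over all genes). Lamb2 rose by 1.84 (adjusted p = 2.62e-07), Lama5 by 0.97 (adjusted p = 6.95e-07) and Lama3 by 3.82 (adjusted p = 5.24e-06), and Pxdn, a peroxidase that cross-links collagen IV, fell by 3.39 (adjusted p = 2.67e-06). Without library 3, 9 of 17 rose and 3 fell, against 27.7% and 29.7% of genes. Lamb2 then gave 1.98, Lama5 1.01, Lama3 3.74 and Pxdn -2.72, each past the threshold. These 3 alternative laminin chains thus rose in a comparison in which Lamb1 fell.

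Genes that process and export collagen were mostly higher at day 15. Serpinh1, the collagen chaperone HSP47, stood at 36.3 CPM in undifferentiated cells, 1498 CPM in untreated day-15 cells and 2636 CPM in AICAR GFP-negative cells, and at 38.7, 81.5 and 699 CPM in the GFP-positive libraries. Of 22 such genes 17 passed 2-fold upward and 0 downward in day-15 against undifferentiated cells, against 31.8% and 18.9% of genes. Their median was 2.84, against 0.20 over all genes. Loxl2 (log2 ratio 7.02), Leprel1 (6.68), P4ha3 (6.54) and Fkbp10 (5.65) led. GFP-negative against day-15 cells gave 6 of 22 lower and 0 higher (median -0.08), against 19.3% and 11.1% of genes. In colony lines against GFP-positive cells 10 of 21 fell and 1 rose by edgeR (median -0.29), against 30.3% and 27.6% of genes: Fkbp10 fell by 3.40 (adjusted p = 1.64e-09) and Serpinh1 by 3.41 (adjusted p = 1.33e-04). Without library 3, 5 fell and 6 rose, against 29.7% and 27.7% of genes. Fkbp10 then gave -3.49 (edgeR, adjusted p = 9.51e-10) and Serpinh1 -1.27 (adjusted p = 3.25e-04).

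Most basement membrane receptors and matrix proteases were higher at day 15 and lower in AICAR GFP-negative than in untreated day-15 cells. Of 18 basement membrane receptors, 16 were more than 2-fold higher in day-15 than in undifferentiated cells, against 31.8% of genes, and 13 were lower and 0 higher in GFP-negative than in day-15 cells, against 19.3% and 11.1%, among them Ddr2, a collagen receptor, at -6.04. Of 15 matrix proteases and inhibitors all 15 were higher in day-15 than in undifferentiated cells, and 13 were lower and 1 higher in GFP-negative than in day-15 cells. Adamts9, a secreted metalloprotease, was at 315 CPM in day-15 cells and 1243 CPM in GFP-negative cells. For Pth1r, the ligand gene Pthlh had 0 reads in GFP-negative cells and all GFP-positive libraries and stood at 2.46 CPM in day-15 cells. Gnas, the G protein subunit that couples the receptor to adenylyl cyclase, stood at 1779 CPM in day-15 cells and 515 CPM in GFP-negative cells. In colony lines against GFP-positive cells 10 of 15 genes of this list fell and 1 rose by edgeR, against 30.3% and 27.6% of genes, led by Ramp2 (-3.51, adjusted p = 1.47e-07). Without library 3 the counts were 9 and 2, against 29.7% and 27.7% of genes, with Ramp2 at -3.42 (edgeR, adjusted p = 2.48e-07). Of the SPARC family, Sparcl1 stood at 182 CPM in day-15 cells and 1.04 CPM in GFP-negative cells, where Sparc stood at 3275 CPM and Spock1 at 195 CPM.

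Over the 9 group means of log2(CPM + 1), the 8 other genes most like the mean profile of the 10, of 10991 compared, were Slco2a1 (Pearson r = 0.996), Gpr108, Flrt3, Sox17 and Pdgfra (each 0.994), Adamts9 (0.993), and Thbd and Gdpd5 (each 0.992). Sox17, Pdgfra and Thbd stand in the parietal endoderm marker list. Among the 10 genes themselves Col4a2 (0.991) and Col4a1 (0.989) were nearest to the mean profile, which they help to form, and Nid2 (0.663) farthest. The points share libraries, and these correlations over 9 groups are descriptions with no test.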

How the data were processed

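RNA of 19 libraries was measured by stranded mRNA sequencing, per the labels. The counts were deposited as uniquely mapped reads in each gene, counted with rpkmforgenes per the file headers. The authors' RPKM values leave out 3′ untranslated regions, per the file headers. Per the submitters' processing notes reads were trimmed with Trimmomatic 0.3.3 and mapped on mm9, with TopHat2 2.0.14 and Bowtie2 2.2.5 named in the submitters' processing notes. Promoters come from RefSeq on GRCm38.p6, and no coordinates were moved between builds.

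Groups follow the titles. The members, gene lists, tests and alternatives were chosen with earlier results of these data known. Replicated comparisons used edgeR 4.0.16 in R 4.3.3 (quasi-likelihood test, TMM scaling, the tool's filter, only the libraries compared, adjusted p under 0.05). Comparisons of 1 library with 1 used a fold above 2 for genes that reached 100 reads on either side and log2 CPM ratios with a prior count of 2. Intervals are exact and at 95%, and like the allowance of 3 reads for a count of 0 they cover only counting error, because PCR copies could not be told from separate molecules. Ratios were tested with scipy 1.17.1. Of each list, up to 4 genes are named, those with the smallest adjusted p or the largest ratio with at least 50 reads; Serpinh1, Adamts9, Gnas, Pthlh, Sparcl1, Spock1, Cubn and the single markers with levels were named after their values were seen. Alternatives were DESeq2 1.42.0, library size alone, no filter, all 9 groups in 1 fit, the first project alone, each replicate left out and a replicate block. The tests were tested on simulated data, with 1 shared spread for all genes of a comparison.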

Additional observations from a re-analysis of the deposited data

Results flagged for a closer look

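Colony line 5 stood apart from the other 7 colony lines for 4 genes by a gap test at the 95% level, which sets the gap to the nearest line against the whole range. Col4a1 was at 665 CPM there, with the nearest line at 184 CPM. Col4a2 was at 335 CPM against 106 CPM, Lama1 at 274 CPM against 137 CPM and Lamb1 at 130 CPM against 45.8 CPM. In colony line 7 Nid1 was at 192 CPM, with the nearest line at 142 CPM. Of 10 genes 5 were marked, where the nominal rate by chance is about 1 in 20, and the 4 genes of line 5 come from 1 library. The gaps were taken on CPM, where high values weigh more than on a log scale, so that rate need not hold. Log values were not tested. Acta2, a smooth muscle actin, was also highest in line 5. The parietal endoderm markers summed to 302 CPM in line 5 and to 194 to 223 CPM in the other colony lines. The part of other cell types in these values was not tested.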

How the results depend on the processing

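Most single-gene values kept direction and side of the threshold: of the alternative values in tested comparisons 753 did, 68 passed only there, 22 no longer passed, 26 changed sign and 5 without a test moved, and in comparisons of single libraries 197 did and 27 moved. The cause was not tested unless fewer samples or genes explain it. With DESeq2, GFP-positive against GFP-negative cells gave 2 members and 1204 genes (0 and 0 by edgeR), against undifferentiated cells 2107 genes (689), against sorted day-2 cells 3 members and 1976 genes (1 and 801), and colony lines against undifferentiated cells 387 genes (4). With all 9 groups in 1 fit, which share 1 estimate of the spread, GFP-positive cells gave 6 members against day-15 cells (3), 7 members and 3548 genes against GFP-negative cells, 1 member and 4304 genes against undifferentiated cells and 4 members and 4236 genes against sorted day-2 cells, and colony lines against undifferentiated cells gave 1 gene, as with library size alone. Without a filter, GFP-positive cells gave 2 genes against GFP-negative cells, 1038 genes against undifferentiated cells and 2 members against sorted day-2 cells. Within the first project sorted lines against GFP-positive cells gave 10 members and 7868 genes (4 and 4617), and Nid1 turned to -0.25 (-0.29 for colony lines). Replicate numbers shared by sorted lines and GFP-positive cells showed no pairing in 1 check (correlation 0.0384 over 9868 genes). That check cannot tell whether the numbers name shared cultures. The replicate block on replicates 1 and 2 gave 10 members, 3 higher and 7 lower, with Lamc1 at 0.43 and Sparc at 0.81, both reversed. No block was run for colony lines, which share fewer than 2 title numbers with the GFP-positive libraries.

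Leaving out 1 replicate, GFP-positive cells gave 1 to 10 members and 2863 to 9413 genes against day-15 cells, 0 to 9 and 0 to 3953 against GFP-negative cells, 0 to 5 and 0 to 4158 against undifferentiated cells and 0 to 6 and 0 to 4152 against sorted day-2 cells. Sorted lines against GFP-positive cells gave 0 to 7 members and 321 to 6514 genes, and colony lines against undifferentiated cells 0 to 118 genes. Signs turned without GFP-positive library 3, where log2 values over the left-out replicates ran from -0.65 to 2.01 for Lamb1 against sorted day-2 cells, from -0.25 to 1.37 for Lamc1 and -0.35 to 2.22 for Sparc against undifferentiated cells, from -0.81 to 0.79 (Lamc1) and -1.91 to 0.65 (Sparc) in colony lines and from -1.21 to 0.42 and -1.87 to 0.71 in sorted lines. Nid1 against undifferentiated cells ran from -0.78 to 0.02. Leaving out 1 colony line, values against undifferentiated cells ran from -0.23 to 0.18 for Lama1, -0.27 to 0.44 for Lamb1 and -0.01 to 0.03 for Nid2, and Nid1 against sorted lines from -0.11 to 0.00. Ratio differences ran from -2.71 to -1.34 for Lama1 to Lamc1, -4.05 to -3.28 for Lamb1 to Lamc1 and 0.59 to 1.20 for Nid1 to Nid2, and with medians were -2.15, -3.80 and 1.04 (exact permutation test, adjusted p = 0.0646). Without colony lines 1, 4 and 5, chosen after seeing the data, colony lines against undifferentiated cells gave 0 genes, with Col4a1 at -0.09, Col4a2 -0.76, Lama1 -0.50, Lamb1 -0.74 and Nid2 -0.02, and against sorted lines Col4a1 -0.45, Col4a2 -0.44, Lama1 -0.07, Lamb1 -0.18 and Nid1 0.03. Depth limits Pth1r in the lines, where 0 to 15 reads lie behind each value.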
